A study of Mus musculus with 11 samples.

Results

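The elastic fibre genes examined here were chosen by name from the count table: elastin (Eln), the fibrillins Fbn1 and Fbn2, the fibulins Fbln1, Fbln2, Fbln5 and Efemp1, and the lysyl oxidases Lox, Loxl1 and Loxl2. Of these 10 genes, 9 had a row in the table of 14602 genes, and Fbn2 did not. RNA was sequenced from RPE/choroid of C57BL/6J mice aged 12 months, after removal of the neural retina. There were 6 naïve control libraries and 5 laser treated libraries, the latter from mice given a 2RT nanosecond laser to 1 eye at 9 months and collected 3 months later. The RNA was pre-amplified with a SmartSeq v4 kit, and each library was 1 replicate.

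Bruch's membrane is the layered sheet between the RPE and the choroidal capillaries, and its middle layer is made of elastic fibres. Such a fibre has a core of cross-linked elastin laid on a scaffold of fibrillin microfibrils. Fibulins bring tropoelastin, the soluble precursor, to the scaffold, and lysyl oxidases cross-link it. In the eye these genes can be transcribed by the RPE and by fibroblasts, pericytes, smooth muscle and melanocytes of the choroid, so a bulk sample cannot separate fewer cells of a type from less RNA per cell.

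Total counts were 25700881 to 36766020 in the naïve control and 32094560 to 38755994 in the laser treated libraries, and the correlation of log2 CPM (counts scaled to the library total) between libraries was 0.792 to 0.882. The 12 RPE genes listed as markers, among them Rgr, Ttr and Rpe65, summed to 96000.9 to 134846.7 CPM in the naïve control and 76768.6 to 129453.1 CPM in the laser treated libraries. Best1, a defining RPE gene, was low in this table, with 1.20 ± 1.25 CPM (SD, n = 6) in naïve control libraries. Rod genes of the neural retina were also present: 8 of 8 listed were found, and they summed to 5399.2 to 20192.8 CPM and 3579.4 to 18119 CPM. The libraries also differed in sex-linked transcripts. The sum of 4 Y-linked genes was 145.3 to 245.9 CPM in 5 libraries, 2 naïve control and 3 laser treated, and under 1 CPM in 5 others, 4 naïve control and 1 laser treated. Laser treated 2 had 8.29 CPM of Y-linked transcripts together with 44.1 CPM of Xist. The first line of each library's transcript file held a label, R1 or R2, whose meaning is not given. R1 stood on naïve control 1 to 3 and laser treated 1 and 2, and R2 on the other 6 libraries.

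Per kilobase of exon, Efemp1, Loxl1 and Fbln5 were the most abundant elastic fibre transcripts and elastin was among the least abundant. Efemp1 had 41.1 ± 32.8 CPM per kb (SD, n = 11), Loxl1 31.0 ± 6.94 and Fbln5 21.6 ± 4.76. Efemp1 and Loxl1 could not be ordered, as Efemp1 was above Loxl1 in 6 of 11 libraries, whereas Loxl1 was above Fbln5 in all 11. Length here is that of all annotated exons, 3297 bases for Loxl1 and 6911 for Fbln5. Before division by length Fbln5 was above Loxl1 in every library, so their order rests on the length used. Fbln5 was above Fbln1 in 10 of 11. Next came Fbln1 with 6.84 ± 6.94 CPM per kb and Fbn1 with 3.15 ± 0.762, and Fbln1 was above Fbn1 in 5 of 11 libraries, so these too could not be ordered. Fbn1 was above Fbln2, at 1.16 ± 0.754 CPM per kb, in all 11. Fbln2 was above Eln, at 0.491 ± 0.184 CPM per kb, in 10 of 11 libraries, and Eln was above Loxl2 in 10 of 11. Loxl2, at 0.221 ± 0.0958 CPM per kb, and Lox, at 0.131 ± 0.189, were lowest, with Loxl2 above Lox in 9 of 11 libraries.

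**Figure D1:**
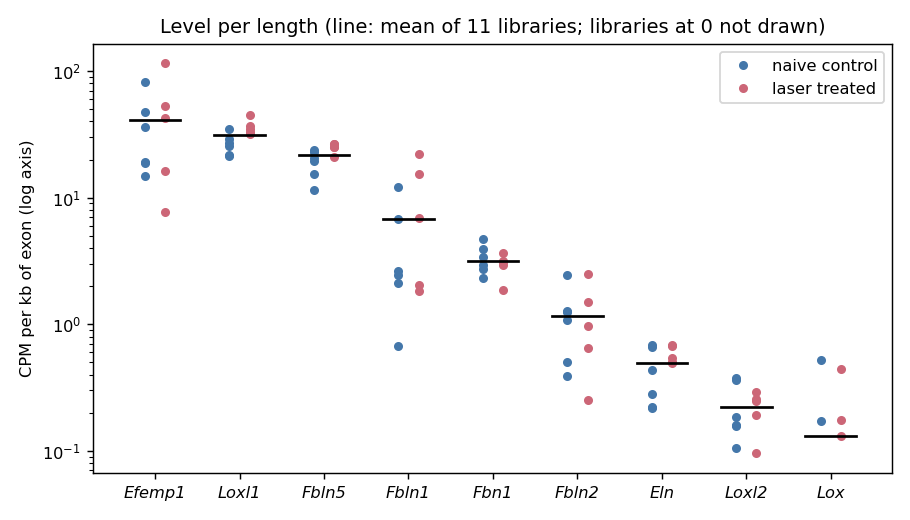
CPM per kb of exon (log axis) for the 9 elastic fibre genes, ordered by their mean over 11 libraries (horizontal line, libraries at 0 included). Blue points are naïve control and red points laser treated libraries; libraries listed at 0 are not drawn, which concerns Lox alone. Efemp1, Loxl1 and Fbln5 stand highest, and Efemp1 and Fbln1 spread most widely among the more abundant genes.

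The comparison of laser treated with naïve control libraries asked whether elastic fibre transcripts differed 3 months after the laser. By the quasi-likelihood test of edgeR, adjusted after Benjamini and Hochberg, 0 of 9 elastic fibre genes had an adjusted p under 0.05, and percent called over all 14602 genes was also 0. At an unadjusted p under 0.05, 2 of the 9 were higher after laser, Loxl1 and Fbln5, and 0 were lower. Over all genes 8.24% were higher and 7.68% were lower at that p. The count of 2 became 1 when any 1 of naïve control 1, 2, 3 or 5 or laser treated 1 to 4 was left out. Over all genes DESeq2 called 502 at an adjusted p under 0.05 and limma voom, here with quality weights for libraries, 1. Limma voom called 0 of the 9 elastic fibre genes and DESeq2 0 of the 5 to which it gave an adjusted p, since it gave none for Eln, Fbln2, Lox and Loxl2. Of the 9 log2 fold changes 7 were above 0, with a median of 0.38 against -0.02 for all genes, although the direction of Efemp1, Fbln2, Lox and Loxl2 turned under some alternatives given under each gene. None of the 9 genes had CPM that did not overlap between the groups, against 2.26% of all genes.

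**Figure D2:**
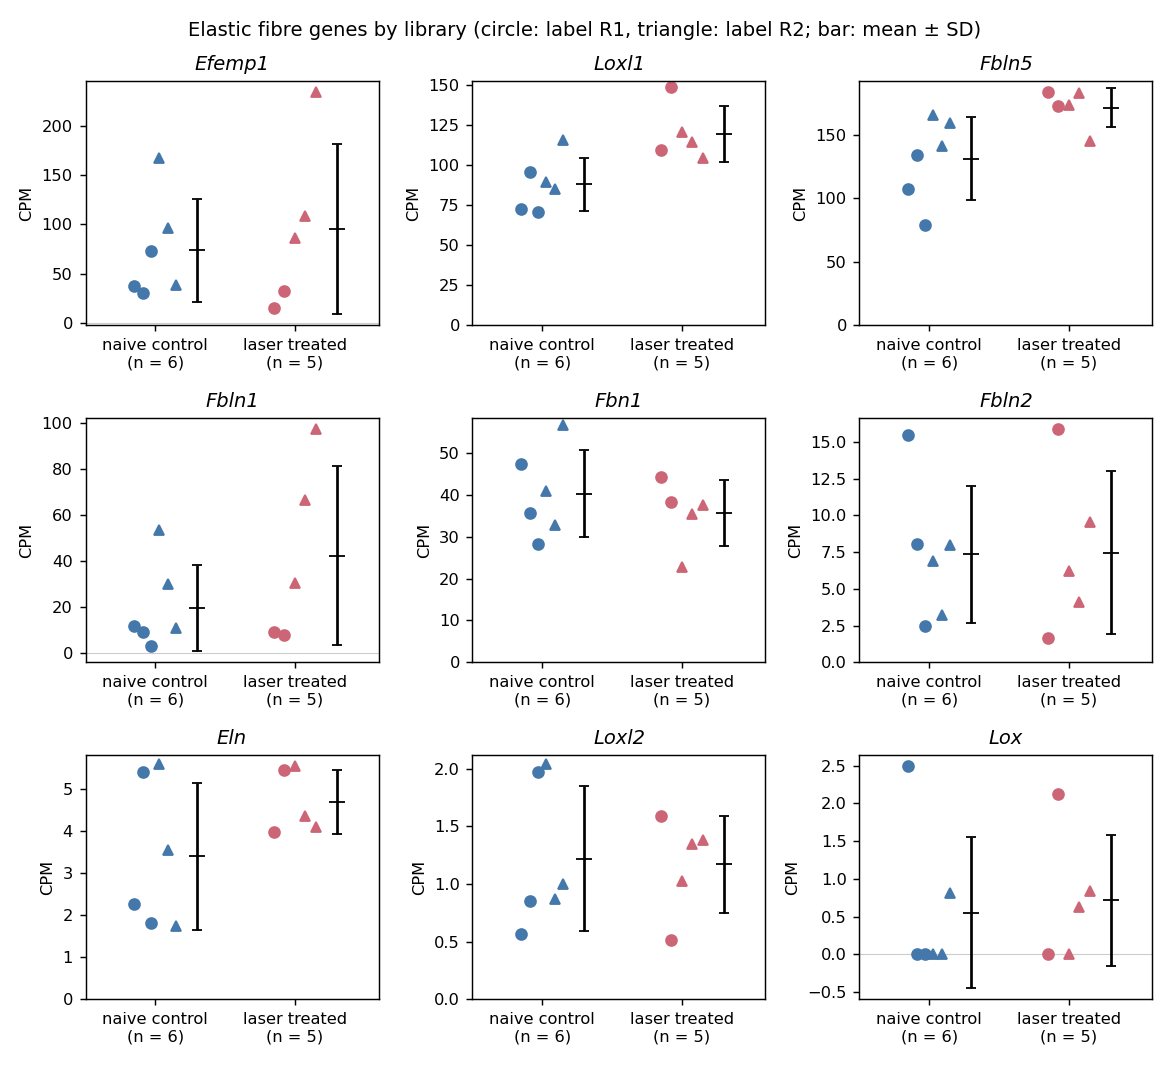
CPM of each elastic fibre gene in each library, with 6 naïve control libraries in blue and 5 laser treated libraries in red, circles for the label R1 and triangles for R2; black bars are the mean ± SD. The groups overlap for every gene, most narrowly for Loxl1 and Fbln5, and the highest Fbln1 and Efemp1 values are triangles in both groups.

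Elastin, the core protein of the fibre, lies on chromosome 5 of GRCm38 from 134702593 to 134747323. Its level was low in every library: the naïve control libraries had 1.75 to 5.59 CPM with a median of 2.91, and the laser treated libraries had 3.98, 5.44, 5.54, 4.36 and 4.09 CPM. Naïve control 2 and 4 were as high as the highest laser treated libraries, and the other 4 naïve control libraries were below all 5 laser treated ones. The log2 fold change was 0.46 with a standard error of 0.43 (95% interval -0.46 to 1.39, adjusted p = 0.668 by edgeR's quasi-likelihood test), which is an interval of 0.725-fold to 2.62-fold. An antisense gene, Gm30003, shares 267 exonic bases with Eln, and whether reads were counted by strand is not given. Over the 11 libraries Eln was most like Tprgl (r = 0.91), Sh3bp5 (r = 0.90) and Ippk (r = 0.89). Here and below, such r are the highest of all genes over 11 libraries, so high values can arise by that selection alone. None of them was tested.

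Fbn1 encodes fibrillin-1, the main microfibril protein of the adult, and lies on chromosome 2 from 125300594 to 125507993. For Fbn1, naïve control libraries had 28.2 to 56.7 CPM with a median of 38.3, and laser treated libraries had 44.4, 38.4, 22.7, 35.5 and 37.7 CPM. The lowest value of all was laser treated 3, and the other 4 lay inside the naïve control range. The difference was -0.17 on the log2 scale with a standard error of 0.21 (95% interval -0.63 to 0.28, adjusted p = 0.768 by edgeR's quasi-likelihood test). This interval runs from 0.648-fold to 1.21-fold. The protein-coding gene Gm9913 shares 2442 exonic bases with Fbn1, so their reads may have been split or lost. Fbn1 was most like Klf11 (r = 0.86), Aim1 (r = 0.85) and Tmem45a (r = 0.84).

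Fbln5 encodes fibulin-5, which binds both tropoelastin and Loxl1 and is needed for elastic fibres to form. It lies on chromosome 12 from 101746565 to 101819055. Naïve control libraries had 79.1 to 165.8 CPM with a median of 137.5, and laser treated libraries had 183.7, 172.3, 173.3, 182.6 and 145.3 CPM. Of the 5 laser treated libraries 4 were above every naïve control library, and laser treated 5 was inside their range. The mean was 131.1 ± 32.9 CPM (SD, n = 6) against 171.4 ± 15.5 CPM (SD, n = 5), which is 1.31-fold (95% interval 1.01 to 1.69). The log2 fold change of 0.39 had a standard error of 0.17, an unadjusted p of 0.0398 and an adjusted p of 0.289 by edgeR's quasi-likelihood test. Within the label R1 the difference on the log2 CPM scale was 0.77 and within R2 it was 0.10. The interaction, tested after these values were seen, was -0.64 with a standard error of 0.28 (unadjusted p of 0.0428, adjusted p = 0.508 by edgeR's quasi-likelihood test). Over all genes 9.5% had an unadjusted p under 0.05 for this interaction. With the Y-linked level as a covariate the log2 fold change was 0.33 with an unadjusted p of 0.0894.

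Loxl1 encodes the lysyl oxidase that fibulin-5 tethers to elastin and that is needed to renew elastic fibres in adult tissue, and it lies on chromosome 9 from 58287738 to 58313186. For Loxl1, naïve control libraries had 70.8 to 115.5 CPM with a median of 87.0, and laser treated libraries had 109.1, 148.4, 120.4, 114.3 and 104.4 CPM. All 5 laser treated libraries were above 5 of the 6 naïve control libraries, and naïve control 6 was above 3 laser treated libraries. The mean was 88.0 ± 16.5 CPM (SD, n = 6) against 119.3 ± 17.3 CPM (SD, n = 5), which is 1.36-fold (95% interval 1.09 to 1.69). The log2 fold change of 0.44 had a standard error of 0.15, an unadjusted p of 0.00958 and an adjusted p of 0.197 by edgeR's quasi-likelihood test. Within R1 the difference was 0.69 and within R2 it was 0.24 on the log2 CPM scale, and the interaction was -0.47 (adjusted p = 0.665 by the same test). Naïve control 6 had the highest Loxl1 of its group and laser treated 5 the lowest, so omitting both widens the difference. Without this pair, chosen with earlier results known, the log2 fold change was 0.58 and the adjusted p = 0.0528 by edgeR's quasi-likelihood test. That fit called 389 genes over the whole table, against 0 with all libraries.

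The difference between the groups followed the GC content of transcripts, with a Pearson correlation across 14253 genes of 0.37. Genes are not independent replicates, and no p is attached to this value. Loxl1 has the highest GC content of the elastic fibre genes, 61.0% of the bases of its longest transcript, whereas Fbln5 has 46.9%. Once a trend on GC was removed in each library, the log2 fold change of Loxl1 was 0.15 (unadjusted p of 0.310, adjusted p = 0.834 by edgeR's quasi-likelihood test) and that of Fbln5 was 0.50 (unadjusted p of 0.0204, adjusted p = 0.576). Fbln5 was then the 1 elastic fibre gene at an unadjusted p under 0.05, against 3.88% of all genes higher and 4.26% lower. The GC-rich Eln, at 58.8%, went to 0.17, and Efemp1, at 44.9%, went to 0.57.

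**Figure D3:**
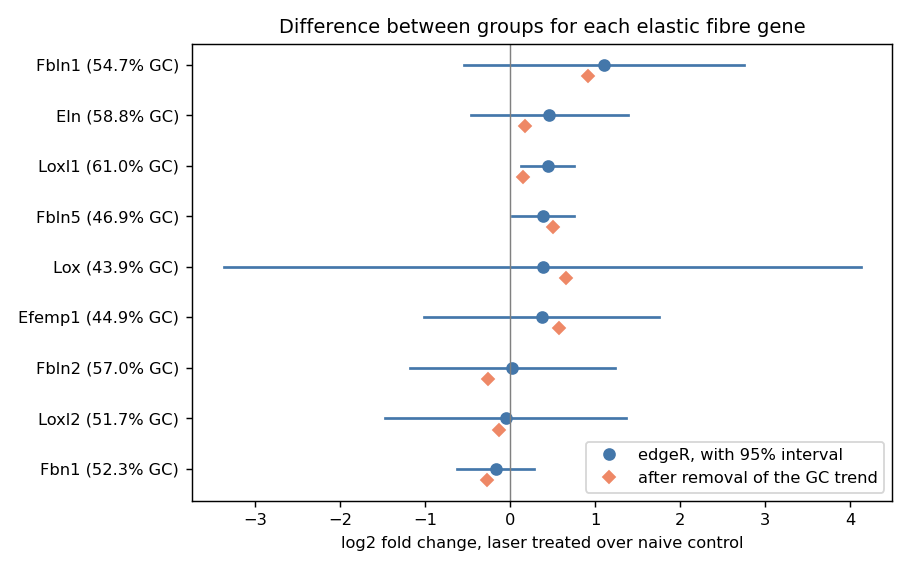
Log2 fold change of laser treated over naïve control libraries for each elastic fibre gene, with its 95% interval (blue points and lines, edgeR) and after removal of the GC trend (orange diamonds). The percentages are the GC content of the longest transcript. The Loxl1 and Fbln5 intervals lie above 0, and removal of the GC trend moves Loxl1 from 0.44 to 0.15 and Fbln5 from 0.39 to 0.50.

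Fbln5 and Loxl1 varied together across the 11 libraries, with a Pearson r of 0.81 and a Spearman rho of 0.75 of log2 CPM. The points share the group difference described above. The lowest values of both genes were in naïve control 1 and 3, which had the highest neural retina sums of their group, 16941.4 and 20192.8 CPM. Laser treated 3 and 4 had sums of 17115.9 and 18119 CPM, and their Fbln5 values of 173.3 and 182.6 CPM were above every naïve control library. The part of neural retina RNA in the difference was not tested. The genes most like Loxl1 over the 11 libraries were Ppp1r16a (r = 0.98), Stxbp2 (r = 0.97) and Uqcrc1 (r = 0.97), and those most like Fbln5 were Plaur (r = 0.97), Oat (r = 0.96) and Tex264 (r = 0.96).

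Fbln1 encodes fibulin-1, a glycoprotein of basement membranes and elastic fibres, and lies on chromosome 15 from 85205949 to 85286535. Naïve control libraries had 2.94 to 53.4 CPM with a median of 11.2, and laser treated libraries had 9.00, 7.99, 30.3, 66.6 and 97.1 CPM. Laser treated 4 and 5 were above every naïve control library, whereas laser treated 1 and 2 were below the naïve control median. Laser treated libraries differed by 1.10 on the log2 scale with a standard error of 0.76 (95% interval -0.55 to 2.75, adjusted p = 0.531 by edgeR's quasi-likelihood test). It was 0.54 without laser treated 5 and 1.71 without naïve control 4, and 0.64 with the label R1 or R2 as a covariate. The ratio of highest to lowest library was 18.2 within the naïve control and 12.1 within the laser treated group.

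Efemp1 encodes fibulin-3, a protein of Bruch's membrane in which a mutation causes an inherited macular dystrophy with drusen, and lies on chromosome 11 from 28853204 to 28926743. For Efemp1, naïve control libraries had 30.4 to 167.1 CPM with a median of 56.0, and laser treated libraries had 15.6, 32.9, 86.3, 108 and 233.9 CPM. Both the lowest and the highest library were laser treated. The log2 fold change was 0.37 with a standard error of 0.63 (95% interval -1.02 to 1.75, adjusted p = 0.852 by edgeR's quasi-likelihood test). The direction turned, to -0.29 without laser treated 5 and to -0.12 with the label as a covariate.

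Fbln1 and Efemp1 varied together over the libraries as a whole, with a Pearson r of 0.74 and a Spearman rho of 0.81 over 11 libraries. Naïve control 3 stood off this relation, with the lowest Fbln1 of all and 73.2 CPM of Efemp1. Their variation went with the label R1 or R2. Fbln1 had 8.16 ± 3.20 CPM (SD, n = 5) in R1 libraries and 48.0 ± 31.0 CPM (SD, n = 6) in R2 libraries. With the group in the model, R2 exceeded R1 by 2.39 on the log2 scale with a standard error of 0.49 (unadjusted p of 0.000323, adjusted p = 0.363 by edgeR's quasi-likelihood test). Efemp1 had 38.0 ± 21.4 CPM (SD, n = 5) in R1 and 121.7 ± 68.7 CPM (SD, n = 6) in R2 libraries, a log2 difference of 1.72 with a standard error of 0.48 (unadjusted p of 0.00374, adjusted p = 0.881 by the same test). These were the 2 of 9 elastic fibre genes at an unadjusted p under 0.05 for the label, against 4.21% of all genes, and percent called at the adjusted p was 0. This test was chosen after the values were seen.

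The label overlapped in part with sex-linked transcripts. Of the 5 libraries rich in Y-linked transcripts 4 had the label R2, and of the 5 with nearly none 3 had R1. With the group in the model, the slope of Fbln1 on the log2 Y-linked level was 0.24 with a standard error of 0.08 (unadjusted p of 0.0130, adjusted p = 1 by edgeR's quasi-likelihood test), and for Efemp1 it was 0.16 with a standard error of 0.08 (unadjusted p of 0.0610). Over all genes 3.44% had a p under 0.05 for this slope. With both in the model, the label difference was 1.93 for Fbln1 (unadjusted p of 0.00455) and 1.52 for Efemp1 (unadjusted p of 0.0272), with an adjusted p of 0.999 for each by edgeR's quasi-likelihood test. In laser treated 1, which had the highest Y-linked level, 245.9 CPM, and the label R1, Fbln1 was 9.00 CPM and Efemp1 15.6 CPM. Naïve control 4 and laser treated 5, where Efemp1 was highest, also had the highest sums of the 7 Schwann cell and melanocyte markers found, 2196.1 and 2581.8 CPM. The next highest sum, 1566.3 CPM, was in laser treated 1, where Efemp1 was lowest, and the other libraries had 849.6 to 1280.2 CPM. The part of these cell types was not tested.

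**Figure D4:**
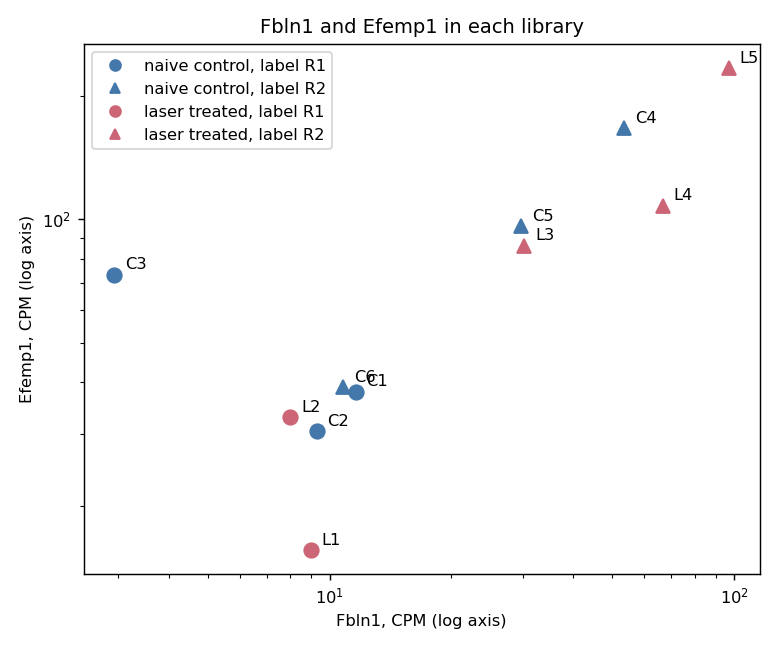
Efemp1 against Fbln1 CPM (both log axes) in each library, with C1 to C6 the naïve control libraries in blue and L1 to L5 the laser treated libraries in red, circles for the label R1 and triangles for R2. The upper right holds 5 of the 6 R2 libraries from both groups; naïve control 6 is the R2 library among the low values.

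Within R1 and R2 the laser difference on the log2 CPM scale was 0.31 and 1.17 for Fbln1, and -0.96 and 0.60 for Efemp1. The interaction was 0.95 with a standard error of 0.91 for Fbln1 (adjusted p = 0.803 by edgeR's quasi-likelihood test) and 1.47 with a standard error of 0.82 for Efemp1, which did not pass either. The genes most like Fbln1 over the 11 libraries were Gpx3 (r = 0.96), Gpc4 (r = 0.95) and Mxra8 (r = 0.94). Those most like Efemp1 were Trpm1 (r = 0.95), Shisa2 (r = 0.95) and Gas1 (r = 0.94).

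The promoters of Fbln1 and Efemp1 are shown because these genes varied together, and that of Fbln5 for comparison, its Pearson r over the same libraries being -0.03 with Efemp1 and 0.53 with Fbln1. Each is the 250 bases before the start in the RefSeq table on GRCm38.p6, at chr15:85205699-85205948 on the plus strand for Fbln1, chr11:28852955-28853204 on the plus strand for Efemp1 and chr12:101819120-101819369 on the minus strand for Fbln5. That table held 5 of the 10 elastic fibre genes. Capitals mark matches on either strand to the GC box GGGCGG, the TATA box TATAAA, the CCAAT box, the AP-1 site TGANTCA, the SMAD box CAGAC or the E-box CACGTG.
Fbln1: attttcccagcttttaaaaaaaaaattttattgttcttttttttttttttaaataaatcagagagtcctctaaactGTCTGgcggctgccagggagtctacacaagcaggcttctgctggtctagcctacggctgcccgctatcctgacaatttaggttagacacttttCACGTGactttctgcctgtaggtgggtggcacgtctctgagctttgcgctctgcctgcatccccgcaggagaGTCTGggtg
Efemp1: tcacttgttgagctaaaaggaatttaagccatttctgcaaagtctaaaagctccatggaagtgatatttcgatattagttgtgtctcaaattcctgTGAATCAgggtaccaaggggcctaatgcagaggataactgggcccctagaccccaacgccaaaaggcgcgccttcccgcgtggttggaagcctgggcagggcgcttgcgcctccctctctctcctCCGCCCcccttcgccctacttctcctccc
Fbln5: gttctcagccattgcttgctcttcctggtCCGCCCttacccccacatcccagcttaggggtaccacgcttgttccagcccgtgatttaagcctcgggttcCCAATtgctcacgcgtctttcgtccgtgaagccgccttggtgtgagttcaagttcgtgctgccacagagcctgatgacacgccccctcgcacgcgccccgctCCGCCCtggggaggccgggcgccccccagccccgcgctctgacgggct
The Fbln1 promoter held 2 SMAD boxes and 1 E-box, motifs present in 42.2% and 6.02% of 32851 promoters of this length. The Efemp1 promoter held 1 GC box and 1 AP-1 site, present in 32.7% and 6.75%. The Fbln5 promoter held 2 GC boxes and 1 CCAAT box, the latter present in 33.8%, and none of the 3 held a TATA box, present in 12.4%. The Fbln1 and Efemp1 windows thus had no searched motif in common. The other 2 matched promoters, of Fbn1 and Fbln2, each held 1 GC box and none of the other 5 motifs. Base composition differed among the 3 windows shown, with 46.4% GC for Fbln1, 53.6% for Efemp1 and 65.2% for Fbln5.

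Fbln2 encodes fibulin-2, which overlaps with fibulin-5 in vessel walls, and lies on chromosome 6 from 91212455 to 91272540. The range was 2.49 to 15.5 CPM in naïve control libraries, with a median of 7.43, and laser treated libraries had 1.62, 15.9, 6.22, 4.10 and 9.56 CPM. The 2 groups spanned nearly the same range. A log2 fold change of 0.02 was found, with a standard error of 0.56 (95% interval -1.18 to 1.23, adjusted p = 0.990 by edgeR's quasi-likelihood test), and its direction turned under 3 alternatives and 5 of the leave-one-out fits. Fbln2 was most like Tmem204 (r = 0.89), 6230427J02Rik (r = 0.87) and Tbxa2r (r = 0.86). With Lox it had a Pearson r of 0.68, a value that leans on the 6 of 11 libraries where Lox was listed at 0.

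Lox encodes the founding lysyl oxidase of the family, lies on chromosome 18 from 52516067 to 52529867 and was listed at 0 in 6 of 11 libraries. Its counts were 88 in naïve control 1, 27 in naïve control 6, 78 in laser treated 2, 22 in laser treated 4 and 28 in laser treated 5, so 2 of 6 naïve control and 3 of 5 laser treated libraries had any. Its log2 fold change was 0.38 with a standard error of 1.74 (95% interval -3.37 to 4.12, adjusted p = 0.948 by edgeR's quasi-likelihood test) and turned to -0.58 without laser treated 2. In 2 of the 6 libraries listed at 0 a transcript fragment had been assembled on the last exon of Lox, with a coverage of 7.72 over 260 bases in naïve control 4 and 6.41 over 731 bases in laser treated 1. A 0 in the count table is therefore not the same as no reads at Lox. Its likeness to Fsd2 (r = 0.96), Cys1 (r = 0.86) and Flii (r = 0.85) rests largely on the split between the 6 libraries at 0 and the 5 above 0.

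Loxl2 encodes a lysyl oxidase that acts on collagen IV of basement membranes, and lies on chromosome 14 from 69609068 to 69695834. Naïve control libraries had 0.566 to 2.04 CPM with a median of 0.932, and laser treated libraries had 1.59, 0.516, 1.03, 1.35 and 1.38 CPM. No library reached 3 CPM, and the groups overlapped over nearly their whole range. A log2 fold change of -0.05 was found, with a standard error of 0.66 (95% interval -1.47 to 1.36, adjusted p = 0.981 by edgeR's quasi-likelihood test), and its direction turned with limma voom. The genes most like it were Arl2bp (r = 0.89), Zfp652 (r = 0.85) and Ptgfrn (r = 0.85). An antisense gene, Gm27177, shares 301 exonic bases with Loxl2.

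StringTie assembled transcript fragments on each gene, each taken here as the span from its first to its last base. Such fragments are not a measure of the bases that reads covered, since Loxl2 had counts in every library and fragments in 3. For Loxl1 they spanned a median of 82.8% of exonic bases in naïve control and 81.2% in laser treated libraries, and for Efemp1 47.3% and 53.1%. The medians were 14.1% and 23.1% for Eln, 25.4% and 27.0% for Fbn1, 26.7% and 28.5% for Fbln5, and 24.4% and 24.7% for Fbln1. Fragments lay on Loxl2 in 2 of 6 naïve control and 1 of 5 laser treated libraries. Fbn2, the fibrillin of developing tissue, had a fragment in 0 of 6 naïve control libraries and in 1 of 5 laser treated libraries, covering 367 bases or 2.78% of its exons.

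The summed markers of other cells of the eye overlapped between the groups in every list. Of 10 fibroblast markers 9 were in the table, 5 higher and 4 lower after laser, and 0 had an unadjusted p under 0.05. Fap, Dcn and Lum, those of highest CPM, were at -0.11, -0.07 and -0.36 on the log2 scale, and Dpt was also below 0. Pdgfra, Col1a1, Col1a2, Pi16 and Col3a1 were at 0.78, 0.59, 0.56, 0.47 and 0.22. The 9 markers summed to 361.5 to 756.5 CPM in naïve control and 266 to 811 CPM in laser treated libraries. The 10 smooth muscle and pericyte markers summed to 198.4 to 327.7 CPM and 249.1 to 371.5 CPM, with 1 higher at that p. The 10 endothelial markers summed to 118.9 to 348.8 CPM and 204.1 to 549.9 CPM, and the 8 macrophage markers to 219.6 to 419.6 CPM and 309.7 to 519.2 CPM, with 0 at that p in either list. Of 8 cartilage and sclera markers 5 were found, without Acan, and they summed to 12.5 to 22.7 CPM and 7.23 to 31.2 CPM. The 8 skeletal muscle markers summed to 33 to 386.9 CPM and 43.9 to 541.9 CPM. Genes higher and lower after laser numbered 8 and 2 for smooth muscle and pericyte markers and 9 and 1 for endothelial markers. They numbered 5 and 3 for macrophage, 4 and 1 for cartilage and sclera, and 7 and 1 for skeletal muscle markers. Over all genes 7081 were higher and 7521 lower. The sums of the Schwann cell and melanocyte markers were 849.6 to 2196.1 CPM and 1129 to 2581.8 CPM. The part of any of these cells in the Fbln5 and Loxl1 differences was not tested.

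The wider machinery of the elastic fibre was read from 4 lists of 56 genes, of which 51 were in the table. In these lists 40 genes were higher and 11 lower after laser, with a median log2 fold change of 0.41. At an unadjusted p under 0.05, 12 were higher (23.5%) and 1 lower (1.96%), beside 8.24% and 7.68% of all genes. Once the GC trend was removed 3 were higher (5.88%), Adamtsl4, Itgb5 and Neu1, and 0 were lower, beside 3.88% and 4.26% of all genes. None had an adjusted p under 0.05 in edgeR's quasi-likelihood test.

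Among genes of microfibrils and fibre assembly, 18 of 21 listed were in the table, with 17 higher, 1 lower and 4 higher at an unadjusted p under 0.05. Adamtsl4, which encodes a fibrillin-binding protein whose loss displaces the lens, differed most by p among them. It had 92.0 to 105.7 CPM in naïve control and 131.4 to 231.9 CPM in laser treated libraries, with no overlap. It was the 1 gene of these 18 without overlap, against 2.26% of all genes. It differed by 0.85 on the log2 scale with a standard error of 0.15, an unadjusted p of 5.73e-05 and an adjusted p of 0.172 by edgeR's quasi-likelihood test. The latent TGF-beta binding proteins Ltbp3 and Ltbp4, which sit on microfibrils, had log2 fold changes of 0.50 and 0.82, and Efemp2, the fibulin-4 gene needed for elastin cross-linking, of 0.46. Once the GC trend was removed these were 0.23, 0.53 and 0.28, none at an unadjusted p under 0.05, and Adamtsl4 was at 0.54. Vitronectin (Vtn), a component of drusen, had a log2 fold change of -0.07.

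Among genes of cross-linking, 9 of 10 were in the table and 2 were higher at that p. Bmp1, a protease that activates lysyl oxidases, had a log2 fold change of 0.92 with a standard error of 0.33, and Pcolce, its enhancer on procollagen, of 0.43 with a standard error of 0.14. The adjusted p-values were 0.214 and 0.185 by edgeR's quasi-likelihood test, and removal of the GC trend gave log2 fold changes of 0.67 and 0.22. Atp7a, the copper pump that loads lysyl oxidases, was at -0.31 and Loxl4 at 0.53.

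Among receptors and chaperones of tropoelastin, 10 of 10 were in the table, with 3 higher and 1 lower at that p. Neu1, the sialidase of the elastin receptor complex, had 51.7 to 84.3 CPM in naïve control and 90.1 to 113.4 CPM in laser treated libraries, with no overlap. It was the 1 gene of these 10 without overlap, against 2.26% of all genes. The Neu1 difference was 0.53 on the log2 scale with a standard error of 0.14 (adjusted p = 0.172 by edgeR's quasi-likelihood test). Ctsa, the cathepsin that holds Neu1 in that complex and in the lysosome, was at 0.38. The integrin subunits that pair to bind fibulin-5 and vitronectin lay on opposite sides of 0, with Itgb5 at 0.62 (adjusted p = 0.177) and Itgav at -0.39 (adjusted p = 0.248) by the same test. Once the GC trend was removed these were 0.35 and -0.13, Ctsa was at 0.19 and Neu1 at 0.38.

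Among elastin-degrading proteases and their inhibitors, 14 of 15 were in the table and 3 were higher at that p. Htra1, a secreted serine protease whose locus is linked to macular degeneration, had a log2 fold change of 0.70 with a standard error of 0.22 (adjusted p = 0.189 by edgeR's quasi-likelihood test). Mmp2 was at 0.78 and its inhibitor Timp2 at 0.27. Once the GC trend was removed Htra1 was at 0.45, Mmp2 at 0.55 and Timp2 at 0.11. The cathepsin inhibitor Cst3 and the metalloproteinase inhibitor Timp3, which is held in Bruch's membrane, were both at -0.01.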

How the data were processed

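The authors deposited raw counts of reads per gene in each library, without normalization, and beside them their own comparison (log2 fold change, average abundance, F, p-value and FDR), which was not used. They also deposited other values, the StringTie fragments of each library with coverage. The submitters' processing notes name bcl2fastq 2.18.0.12, Trim Galore, STAR 2.5.3a, featureCounts 1.5.3, StringTie 1.3.3 and edgeR 3.22.3, and mm10 or GRCm38, with no role or order. The members and gene lists were chosen with earlier results of these data known.

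Counts were compared with edgeR 4.0.16 in R 4.3.3: counts were scaled by TMM, filterByExpr left out 0 genes, quasi-likelihood fits were robust, and p-values over 14602 genes were adjusted by the Benjamini-Hochberg method. CPM are normalized by TMM, and log2 CPM used a prior count of 0.5. Total counts were 25700881 to 38755994, and standard errors give the precision at this depth. The labels tie no library to a mouse, so p-values measure the spread between libraries. Genes were placed with GENCODE M21, which gave length and GC content for 97.6%. All elastic fibre genes in the table are named, from the wider lists those at an unadjusted p under 0.05 and up to 3 of the highest CPM, and per member the 3 genes of highest Pearson r.

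Alternatives were DESeq2 1.42.0, limma voom with quality weights for libraries (limma 3.58.1), upper quartile scaling, other filters and no robust estimation. Others were the replicate number as a block, the label, a loess trend (span 0.3) on GC content, and libraries left out. Fits with the block left out naïve control 6, which had no laser treated library of its number. The Y-linked level (log2 of summed CPM plus 1), the test of the label, the label interaction and the GC counts of the wider lists were added after the data were seen. The edgeR fit was tested on simulated data. Counts of single Schwann cell and melanocyte markers are not reported here. Tables and figures used Python 3.11.15, pandas 2.3.3 and matplotlib 3.10.9.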

Additional observations from a re-analysis of the deposited data

Results flagged for a closer look

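In 18 groups of libraries, each 1 gene in naïve control or laser treated libraries, the gap between the highest or lowest library and its nearest neighbour was compared with the range, a rule that chance meets in about 5% of groups. It was met once, by Lox in naïve control 1, with 2.49 CPM against 0 to 0.816 CPM in the other naïve control libraries.

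By the label of the transcript files, the R2 laser difference of Fbln5 minus its R1 difference was -0.64 on the log2 scale (unadjusted p of 0.0428, adjusted p = 0.508 by edgeR's quasi-likelihood test). This was tested after the values were seen. Over all genes the interaction had an unadjusted p under 0.05 in 9.5%, and 0 genes had an adjusted p under 0.05.

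Fbn2, which has no row in the count table used here, had an assembled fragment on its exons in laser treated 1, with a coverage of 2.89, and in 0 of 6 naïve control libraries.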

How the results depend on the processing

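No elastic fibre gene was called under any of the 12 alternatives or 11 leave-one-out fits that gave it an adjusted p, and DESeq2 gave none for 4. Genes called over the whole table were 502 with DESeq2, 2 with a minimum of 10 counts, 1 with limma voom and 389 without naïve control 6 and laser treated 5, and 0 to 4 with 1 library left out (4 without laser treated 2). Elastic fibre genes at an unadjusted p under 0.05 were 1 with the GC trend removed, 1 with it removed beside the replicate block and 1 with the Y-linked covariate, and 1 to 3 with 1 library left out (3 without naïve control 4). Without naïve control 6 and laser treated 5, a pair chosen with earlier results known, 2 did not overlap and 4 of the 8 tested were higher. With 1 library left out, 0 to 1 did not overlap (1 without naïve control 6 and 1 without laser treated 5) and 5 to 7 were higher (5 without laser treated 5). For Loxl1 only naïve control 6 overlapped the laser treated range, and for Fbln5 only laser treated 5 lay in the naïve control range. The share of all genes not overlapping in these smaller sets was not computed, so those counts have no background. The log2 fold change of Efemp1 turned to -0.07 with limma voom, -0.07 with the replicate block, -0.12 with the label and -0.42 without both libraries, and was -0.29 to 0.78 with 1 left out. That of Fbln2 turned to -0.26 with the GC trend removed, -0.17 with the replicate block added to that and -0.06 without both libraries, and was -0.45 to 0.38 with 1 left out. That of Loxl2 was 0.10 with limma voom and -0.20 to 0.15 with 1 left out, and that of Lox -0.58 to 0.70. Eln, Fbn1, Fbln1, Fbln5 and Loxl1 kept their direction in every fit. The adjusted p was 0.0528 to 0.834 for Loxl1 and 0.148 to 0.576 for Fbln5. The cause of these shifts was not tested. Lox did not pass the count filter in 4 of the alternatives and 2 of the leave-one-out fits.

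The replicate block changed no call and left 2 genes at an unadjusted p under 0.05. Its fits left out naïve control 6, so their shifts cannot be told apart from the removal of that library. Same-numbered libraries correlated over 0.1 in 2 of 5 pairs, and 2 laser treated libraries correlated best with their own number. Lox, with counts in 5 of 11 libraries, had the widest interval.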
